A study of Homo sapiens with 12 samples.

Results

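The genes described here are 30 ribosome biogenesis and growth genes linked to the transcription factor MYC, followed by the histone mark H3K9ac in MOLM-13 cells, a human acute myeloid leukaemia line that carries a KMT2A-MLLT3 fusion. The cells received WM-1119, a small-molecule inhibitor of the histone acetyltransferase KAT6A, at 4 µM for 4 days, or the vehicle DMSO, with 3 H3K9ac chromatin immunoprecipitation libraries in each group. All libraries come from this 1 cell line, the labels state no separate duration for DMSO, and no label says that the replicates are separate cultures, so a p-value measures only the spread between these libraries, which may be technical. The series holds 12 samples, and its 6 input samples were not analysed here. The stated purpose was to see how inhibiting KAT6A affects the epigenetic program of the leukaemia cells.

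Each gene was represented by 1 H3K9ac region of the deposited table, the region with the highest mean among those lying within 1 kb of either end of the RefSeq gene. Of the 30 genes 29 had such a region, each its own, out of 47648 regions in the table, and PES1 had none. Among all coding genes 12346 of 20056 had such a gene-end region, on 10397 different regions. The unit is CPM, the reads of a region per 1000000 reads in all listed regions of its library, so every value is a share of the library and a uniform gain or loss of the mark cannot be seen in it. In bulk cells, fewer cells with the mark and less of it per cell cannot be told apart.

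Ribosome biogenesis begins in the nucleolus, where RNA polymerase I transcribes the ribosomal RNA precursor, small nucleolar ribonucleoproteins modify it, and large sets of assembly factors build the small and the large subunit around it. MYC, bound to DNA as a pair with MAX at the E-box sequence CACGTG, is known as a driver of these genes and of polyamine, pyrimidine and translation genes such as ODC1, CAD and EIF4E. H3K9ac marks active promoters, and its width and strength at a gene start generally follow how active the gene is.

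The E-box was looked for in the RefSeq promoter windows, which run from 250 bases before to 50 bases after each annotated start on GRCh38.p14. CACGTG reads the same on both strands, so a search of 1 strand covers both. Of the 25 listed genes with a window, 11 held the motif (44.0%), against 34 of 105 other ribosome biogenesis genes (32.4%). It was in 1285 of 10100 coding genes with a gene-end region (12.7%) and 1727 of all 15843 coding genes with a window (10.9%). Counted by window and not by gene, it was in 2548 of all 35116 windows (7.26%). Genes with several windows have more chances to hold a motif, and among genes with 1 window the share was 9 of 17 (52.9%) for the listed genes and 781 of 7353 (10.6%) for coding genes with a gene-end region. Base composition was alike, with a median GC content of 64.0% in the listed genes and 65.0% in genes with a gene-end region. A match is a description of the letters in a window and not a measured binding site.

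The matched sites are shown because E-boxes are the sequence that MYC and MAX bind, although 14 of the 25 genes have none in their windows. No value of the table was used to find them, but the genes were listed for their link to MYC. Each line runs 5′ to 3′ on the strand of the gene with the E-box in capitals, and the sequences are RefSeq's.
MRTO4, chr1:19251819-19251824: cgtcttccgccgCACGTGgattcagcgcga
GNL3, chr3:52686038-52686043: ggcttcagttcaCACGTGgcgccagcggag
FBL, chr19:39846368-39846373: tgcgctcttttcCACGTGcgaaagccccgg
WDR43, chr2:28894670-28894675: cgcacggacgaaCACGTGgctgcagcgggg
PES1, chr22:30591892-30591897: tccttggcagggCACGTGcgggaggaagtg
NOP2, chr12:6568251-6568256: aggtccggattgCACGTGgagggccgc
RRP9, chr3:51941904-51941909: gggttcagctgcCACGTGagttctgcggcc
UTP20, chr12:101280095-101280100: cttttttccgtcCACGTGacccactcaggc
SRM, chr1:11060212-11060217: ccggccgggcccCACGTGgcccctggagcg
EIF4E, chr4:98929200-98929205: ggacatatccgtCACGTGgccagaagctgg
ODC1, chr2:10448002-10448007: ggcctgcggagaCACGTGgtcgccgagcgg
EIF4E and ODC1 each held a second site. In MRTO4, GNL3, FBL, WDR43, PES1, NOP2 and ODC1 a site lay within 50 bases downstream of an annotated start. In RRP9 and UTP20 the first base of the site lay 5 and 10 bases upstream of one, and the RRP9 site ended on the start base.

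ODC1 encodes ornithine decarboxylase, the entry enzyme of polyamine synthesis. Its window chr2:10448278-10448577, which covers the annotated end of the gene, holds no CACGTG and is not printed. The ODC1 window chr2:10447963-10448262, on the minus strand, is shown whole because it holds both E-boxes of the gene, close to another annotated start.
ODC1: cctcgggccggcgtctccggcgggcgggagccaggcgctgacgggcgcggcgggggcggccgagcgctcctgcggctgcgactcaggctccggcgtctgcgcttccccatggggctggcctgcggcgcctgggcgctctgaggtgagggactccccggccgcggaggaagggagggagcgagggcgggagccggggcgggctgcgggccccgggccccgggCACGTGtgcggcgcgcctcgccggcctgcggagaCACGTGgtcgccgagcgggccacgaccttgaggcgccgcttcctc
The NPM1 window chr5:171387599-171387898, on the plus strand, is shown beside it because NPM1 had the lowest change of the listed genes, WM-1119 minus DMSO, as given further on, and because CACGTG is not in these letters, so that nothing is in capitals.
NPM1: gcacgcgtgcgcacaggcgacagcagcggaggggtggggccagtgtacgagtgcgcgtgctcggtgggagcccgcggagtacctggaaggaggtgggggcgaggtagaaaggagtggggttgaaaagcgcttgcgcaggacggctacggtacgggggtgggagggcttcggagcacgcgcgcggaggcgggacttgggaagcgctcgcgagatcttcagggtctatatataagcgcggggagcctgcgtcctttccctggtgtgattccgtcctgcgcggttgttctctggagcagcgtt

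**Figure D1:**
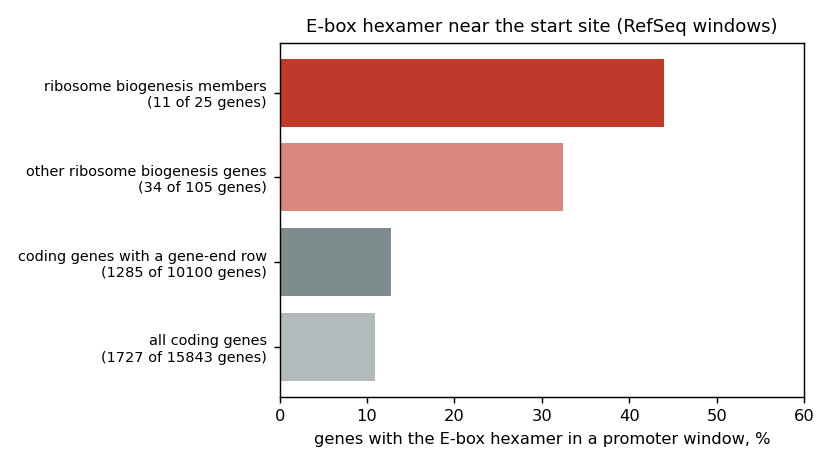
Share of genes with CACGTG in a RefSeq promoter window, in percent on an axis from 0. Bars stand for the listed ribosome biogenesis genes and the sets they are compared with. The listed genes stand at 44.0% and the other ribosome biogenesis genes at 32.4%. Coding genes with a gene-end region stand at 12.7% and all coding genes at 10.9%.

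The listed genes sat in broad and strong H3K9ac regions. Their regions had a median width of 3121 bp, between 1497 and 4359 bp, against 1982 bp for gene-end regions and 401 bp for all regions. The median level was 112 CPM, between 30.9 CPM at UTP20 and 323 CPM at BOP1, against 52.8 CPM for gene-end regions. Of the 29 regions 27 lay above the median gene-end region. Per kb of region the median was 38.5 CPM, between 20.2 CPM per kb at DKC1 and 78.4 CPM per kb at BOP1, against 25.5 CPM per kb for gene-end regions. Of the 29 regions 10 (34.5%) also lay at the end of another coding gene, against 17.4% of gene-end regions, a difference that was not tested. These shared regions are those of BOP1 with HSF1, RRS1 with ADHFE1, MRTO4 with EMC1, NOP16 with HIGD2A, GNL3 with PBRM1, PPAN with ANGPTL6 and a PPAN readthrough gene, POLR1A with PTCD3, NIP7 with COG8, WDR12 with CARF and RRP9 with PARP3, and the mark there cannot be assigned to 1 of the genes.

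The libraries differed in depth, from 4542322 to 12705349 reads in regions for WM-1119, against 719329, 1298443 and 7481097 reads for DMSO replicates 1, 2 and 3. At the listed genes DMSO replicate 1 held 19 to 198 reads per region with a median of 58, and 1 read was worth 1.39 CPM there, against 0.0787 CPM in WM-1119 replicate 3. Regions with a mean below that of the median region took 2.19% to 3.35% of the CPM in WM-1119 libraries, against 8.95%, 7.19% and 2.35% in DMSO replicates 1, 2 and 3. That leaves less of the total for strong regions in DMSO replicates 1 and 2, and its part in the comparisons was not tested. Myeloid genes carried the mark, with a mean of 245 CPM at SPI1, 391 CPM at CEBPA and 1048 CPM at HOXA9, while CD3E, KLF1, EPCAM and COL1A1 lay between 1.25 and 4.83 CPM. CD79A, a B-cell gene, stood above these at 14.7 CPM. CD33, a myeloid surface marker, was at 3.67 CPM, and MS4A1, GATA1 and ALB had no gene-end region.

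Among the nucleolar scaffold proteins, NCL encodes nucleolin, a major RNA-binding protein of the nucleolus. Its region, chr2:231461537-231465895 on hg38, held 197, 243 and 257 CPM in WM-1119 libraries, against 129, 209 and 263 CPM in DMSO libraries. GNL3, or nucleostemin, a nucleolar GTP-binding protein, held 133, 133 and 138 CPM in WM-1119 libraries, against 83.4, 101 and 143 CPM in DMSO libraries, at chr3:52684289-52687923. In both genes DMSO replicate 1 was the lowest library and DMSO replicate 3 the highest, so the groups overlapped. NPM1 encodes nucleophosmin, a nucleolar chaperone that is often mutated in acute myeloid leukaemia. Its region, chr5:171386689-171390834, held 84.3, 90.9 and 96.2 CPM in WM-1119 libraries, against 108, 99.3 and 113 CPM in DMSO libraries. All WM-1119 libraries lay below all DMSO libraries, which held for no other listed gene in either direction. NOLC1, a chaperone of small nucleolar ribonucleoproteins, had 66.0, 87.8 and 88.9 CPM in WM-1119 libraries, against 51.4, 94.7 and 97.7 CPM in DMSO libraries.

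The box C/D ribonucleoproteins methylate ribosomal RNA, with FBL, fibrillarin, as their enzyme and NOP56 and NOP58 as core partners. FBL held 74.4, 101 and 90.7 CPM in WM-1119 libraries, against 84.8, 93.2 and 88.1 CPM in DMSO libraries, at chr19:39844534-39847023. NOP56 was among the strongest of all with 194, 280 and 286 CPM in WM-1119 libraries, against 168, 253 and 305 CPM in DMSO libraries. NOP58 held 119, 137 and 143 CPM in WM-1119 libraries, against 79.2, 123 and 143 CPM in DMSO libraries. The groups overlapped at all 3 genes, and in each the replicate 1 library was the lowest of its group. RRP9, a component of the U3 ribonucleoprotein needed for early cleavage of the precursor, held 56.1, 77.9 and 73.9 CPM in WM-1119 libraries, against 68.1, 82.4 and 78.9 CPM in DMSO libraries, at chr3:51940254-51943393. DKC1, the pseudouridine synthase dyskerin, held 66.9, 80.3 and 79.3 CPM in WM-1119 libraries, against 38.9, 60.8 and 88.2 CPM in DMSO libraries.

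POLR1A and POLR1B encode the 2 large subunits of RNA polymerase I. POLR1A, at chr2:86104736-86107856, held 99.9, 110 and 112 CPM in WM-1119 libraries, against 95.9, 116 and 137 CPM in DMSO libraries. POLR1B held 89.4, 110 and 114 CPM in WM-1119 libraries, against 77.9, 90.1 and 107 CPM in DMSO libraries. Both pairs of groups overlapped, with opposite order of the means. The PeBoW complex, which processes large subunit RNA, is made of PES1, BOP1 and WDR12. BOP1 had the strongest region of the list with 314, 354 and 320 CPM in WM-1119 libraries, against 275, 330 and 344 CPM in DMSO libraries. WDR12 held 75.7, 93.8 and 89.6 CPM in WM-1119 libraries, against 63.9, 67.8 and 93.8 CPM in DMSO libraries.

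The other large subunit factors were RRS1, NOP2, NOP16, NIP7, MRTO4, PPAN and WDR74. MRTO4, a factor related to a ribosomal stalk protein, held 151, 198 and 198 CPM in WM-1119 libraries, against 91.8, 154 and 203 CPM in DMSO libraries, at chr1:19250257-19253762. WDR74, at chr11:62838687-62841147, held 104, 131 and 134 CPM in WM-1119 libraries, against 50.05, 114 and 136 CPM in DMSO libraries. DMSO replicate 1 stood low at both. The other 5 averaged between 58.0 CPM at NOP2 and 189 CPM at RRS1 in WM-1119 libraries, against 48.6 CPM at NOP2 and 164 CPM at RRS1 in DMSO libraries. Of the small subunit factors, UTP20 had the weakest region of the list, with 24.7, 32.3 and 31.0 CPM in WM-1119 libraries, against 26.4, 36.2 and 34.6 CPM in DMSO libraries, at chr12:101279752-101281248. RRP12, at chr10:97399879-97401653, held 75.1, 66.2 and 38.3 CPM in WM-1119 libraries, against 45.9, 51.6 and 38.9 CPM in DMSO libraries. RRP12 was low in the replicate 3 library of both groups, unlike the rest of the list. WDR43 averaged 135 ± 17.7 CPM in WM-1119 libraries, against 119.8 ± 35.1 CPM in DMSO libraries (SD, n = 3 each).

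The growth genes had levels like those of the assembly factors. EIF5A, a translation factor modified with a polyamine-derived residue, held 155, 205 and 205 CPM in WM-1119 libraries, against 108, 142 and 193 CPM in DMSO libraries, at chr17:7306371-7309748. ODC1 held 123, 148 and 147 CPM in WM-1119 libraries, against 79.2, 153 and 138 CPM in DMSO libraries. MAX, the DNA-binding partner of MYC, held 78.4, 64.9 and 64.7 CPM in WM-1119 libraries, against 69.5, 53.1 and 60.8 CPM in DMSO libraries, at chr14:65101004-65102698. MAX was highest in the replicate 1 library of both groups, where most listed genes were lowest. The cap-binding factor EIF4E averaged 150.2 ± 11.0 CPM in WM-1119 libraries, against 136 ± 29.02 CPM in DMSO libraries (SD, n = 3 each). CAD, which starts pyrimidine synthesis, averaged 65.3 ± 16.0 CPM in WM-1119 libraries, against 56.6 ± 14.8 CPM in DMSO libraries. SRM, spermidine synthase, averaged 114 ± 27.3 CPM in WM-1119 libraries, against 109 ± 33.4 CPM in DMSO libraries.

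**Figure D2:**
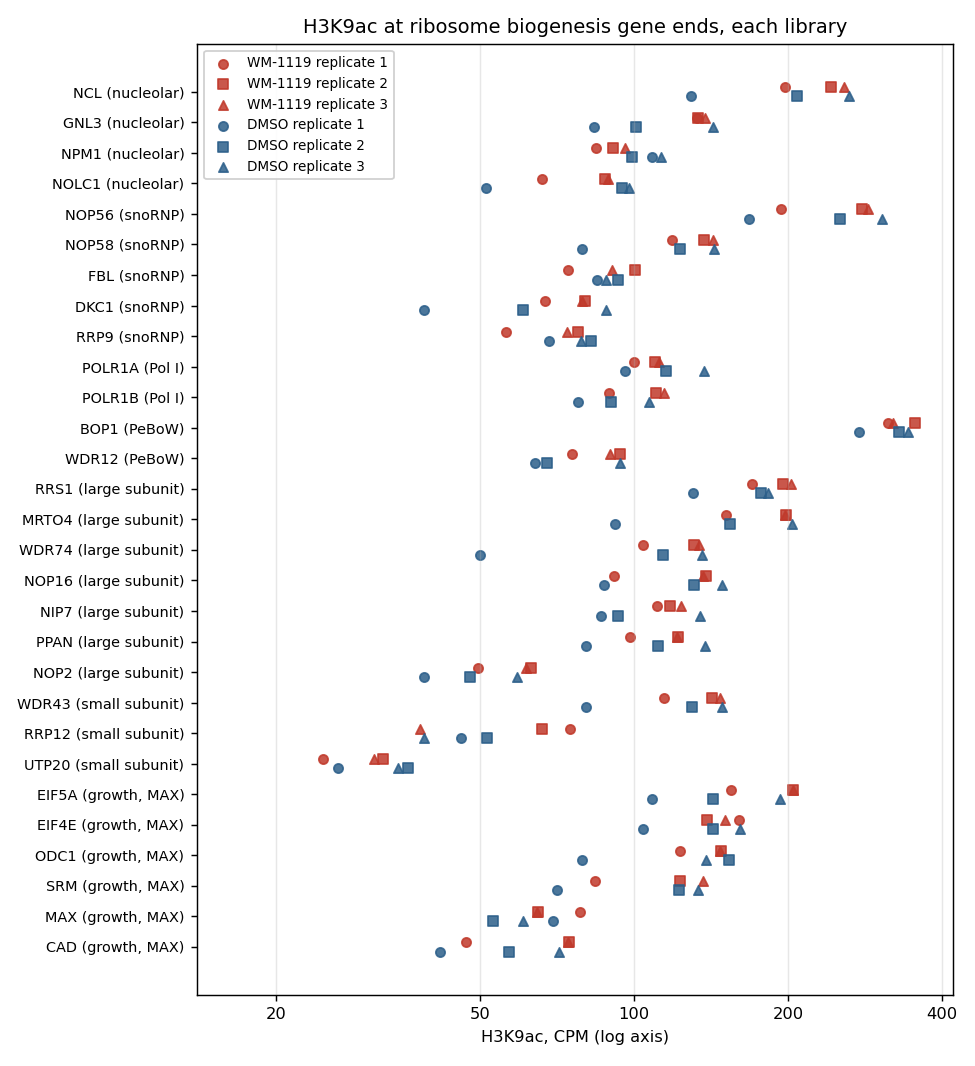
H3K9ac level in CPM on a log axis for each listed gene, grouped by role, with 1 point per library, WM-1119 in red above DMSO in blue. BOP1 is the strongest and UTP20 the weakest, and NPM1 is the gene whose WM-1119 points, 84.3 to 96.2 CPM, lie below its DMSO points, 99.3 to 113 CPM.

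No listed gene passed the test of WM-1119 against DMSO. Changes were computed with limma on log2(CPM + 1), with p-values adjusted by Benjamini-Hochberg over all 44763 regions averaging 1 CPM or more. A region was called at an adjusted p under 0.05. Over all regions 27 were called lower under WM-1119 (0.0603%) and 0 higher (0%). At the listed genes 0 of 29 were called, with adjusted p-values in limma between 0.354 and 0.987. The standard error of a change had a median of 0.18 on the log2 scale. Changes near that size could not be told from 0 at this depth, and larger ones also went uncalled. EIF5A, with a log2 change of 0.37 ± 0.16 (SE), had an adjusted limma p of 0.354.

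In direction 24 of the 29 regions had a higher mean of log2(CPM + 1) under WM-1119 and 5 a lower one. The median log2 change was 0.19. The CPM means of NOLC1 and NOP16, which count as higher here, were slightly lower under WM-1119. They were 80.9 and 122.1 CPM in WM-1119 libraries, against 81.3 and 122.5 CPM in DMSO libraries. Centring each library on its median region adds the same amount to every region's log2 change, and all 29 were then higher. The median over all regions went from -0.47 to 0.30 with it. With quantile normalization 18 of the 29 were higher. The shares of gene-end regions under these scalings were not computed. The main split was close to that of regions of like strength, where 83.8% of the 6960 gene-end regions in the same CPM range were higher, with a median log2 change of 0.18. Over all gene-end regions 67.1% were higher and the median was 0.12, and over all regions 22.8% were higher and the median was -0.47. By role, 3 of 4 nucleolar scaffold genes, 3 of 5 small nucleolar ribonucleoprotein genes and 1 of 2 polymerase I genes had a higher log2 mean. So did 2 of 2 PeBoW genes with a region and 7 of 7 other large subunit factors. The same held for 2 of 3 small subunit factors and 6 of 6 growth genes. The 5 largest differences were a log2 change of 0.41 ± 0.36 (SE) at WDR74, 0.37 ± 0.16 at EIF5A, 0.35 ± 0.21 at MRTO4, 0.34 ± 0.21 at RRP12 and 0.34 ± 0.17 at GNL3. EIF5A and GNL3 had unadjusted limma p-values of 0.0267 and 0.0468 and adjusted ones of 0.354 and 0.371. No other listed gene had an unadjusted p under 0.05 in either direction, while 978 of 10308 gene-end regions (9.49%) were higher and 186 (1.8%) lower at that p. Of the 6960 in the same CPM range, 894 were higher and 43 lower at that p.

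The 5 genes with a lower log2 mean were NPM1, RRP9, UTP20, POLR1A and FBL. NPM1 had a log2 change of -0.24 ± 0.17 (SE, adjusted p = 0.442 in limma). RRP9 had -0.15 ± 0.18, UTP20 -0.14 ± 0.23, POLR1A -0.10 ± 0.17 and FBL -0.01 ± 0.17. All 5 were higher under WM-1119 once each library was centred on its median region, a shift that is the same for every region. NPM1 averaged 90.5 ± 5.94 CPM in WM-1119 libraries, against 107 ± 7.04 CPM in DMSO libraries (SD, n = 3 each). It was the 1 listed gene of 29 whose groups did not overlap in the lower direction, against 3.25% of gene-end regions, and 0 of 29 did so in the higher direction, against 13.4%. Of the 6960 gene-end regions in the same CPM range, 123 did not overlap in the lower direction and 1244 in the higher. NCL, the other abundant nucleolar protein, had a log2 change of 0.26 ± 0.18 with a 95% interval of -0.11 to 0.63, and MAX had 0.18 ± 0.18.

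**Figure D3:**
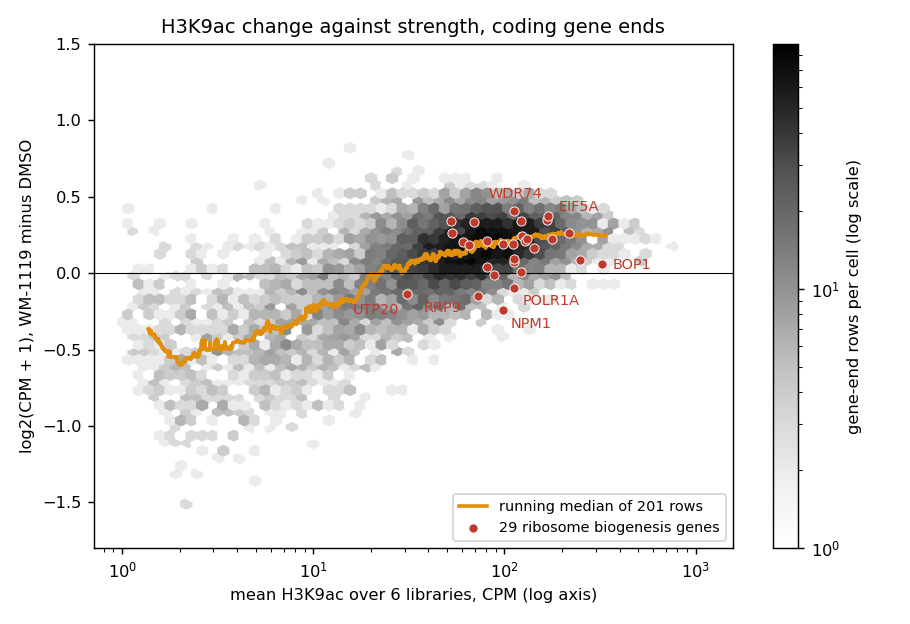
Log2 change of H3K9ac, WM-1119 minus DMSO, against mean CPM on a log axis for gene-end regions (grey cells by number of regions), with their running median in orange and the 29 listed genes in red. The listed genes lie within the cloud of gene-end regions, between -0.24 at NPM1 and 0.41 at WDR74, and sit at the strong end of the axis.

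The direction of the differences depended on which DMSO libraries entered. Without DMSO replicate 3, the deepest DMSO library, 6 listed genes were called higher, namely GNL3, EIF5A, DKC1, MRTO4, NIP7 and NCL, with adjusted limma p-values between 0.00922 and 0.0386. Over all regions 17206 were then called lower (38%) and 2394 higher (5.28%). Those shares include the many weak regions, since the median region of the whole set had 3.57 CPM. The shares among gene-end regions of like strength were not computed for this setting. Without DMSO replicate 1 the median log2 change of the listed genes was -0.02 and 12 of 29 were higher. Without DMSO replicates 1 and 2 together, that median was -0.15 and 4 of 29 were higher. The median over all regions also moved, to -0.26 without DMSO replicate 1 and 0.06 without DMSO replicates 1 and 2, against -0.47 with all libraries. The split of gene-end regions of like strength was not computed for these settings. Summed over the 29 regions, WM-1119 libraries held 3207, 3859 and 3863 CPM, against 2518, 3437 and 3985 CPM in DMSO libraries 1, 2 and 3. The sums of all WM-1119 libraries lay between those of DMSO replicates 1 and 3.

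To set each gene against regions of its own strength, the median log2 value of the 200 other gene-end regions nearest in mean was taken from it within each library. On this scale, called same-strength here, 13 listed genes were higher and 16 lower under WM-1119. Their median difference was -0.02, with a range of -0.42 to 0.23. Of all 10308 gene-end regions 5361 were higher and 4947 lower, with a median of 0.01. Leaving out 1 library moved the split of the listed genes, from 5 of 29 higher without DMSO replicate 1 to 18 of 29 without WM-1119 replicate 1. The shares over gene-end regions in these settings were not computed. With all libraries, none of the 10308 gene-end regions tested was called in limma at an adjusted p under 0.05 (0% lower and 0% higher). At an unadjusted p under 0.05, 402 were lower (3.9%) and 291 higher (2.82%). Among the listed genes 3 were lower at an unadjusted p under 0.05 and 0 higher.

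These 3 were NPM1, RRP9 and POLR1A. NPM1 had same-strength values of -0.28, -0.20 and -0.15 in WM-1119 libraries, against 0.40, 0.15 and 0.09 in DMSO libraries. The difference was -0.42 ± 0.12 (SE), with a 95% interval of -0.70 to -0.14, an unadjusted limma p of 0.00662 and an adjusted p of 0.661. RRP9 had -0.46, 0.01 and -0.07 in WM-1119 libraries, against 0.12, 0.33 and 0.04 in DMSO libraries, a difference of -0.34 ± 0.15 (limma, adjusted p = 0.728). POLR1A had -0.24, -0.11 and -0.12 in WM-1119 libraries, against 0.06, 0.22 and 0.18 in DMSO libraries, a difference of -0.31 ± 0.11 (limma, adjusted p = 0.701). In each the groups did not overlap, and such separation in the lower direction was found in 7.29% of gene-end regions and in the higher direction in 7.09%, where no listed gene showed it. Of these genes RRP9 has an E-box among the sequences printed above, while NPM1 and POLR1A have none in their windows. The largest same-strength gains were 0.23 ± 0.29 at RRP12 and 0.20 ± 0.33 at WDR74, and NCL was at 0.01 ± 0.15 and MAX at 0.01 ± 0.16, all below their standard errors.

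**Figure D4:**
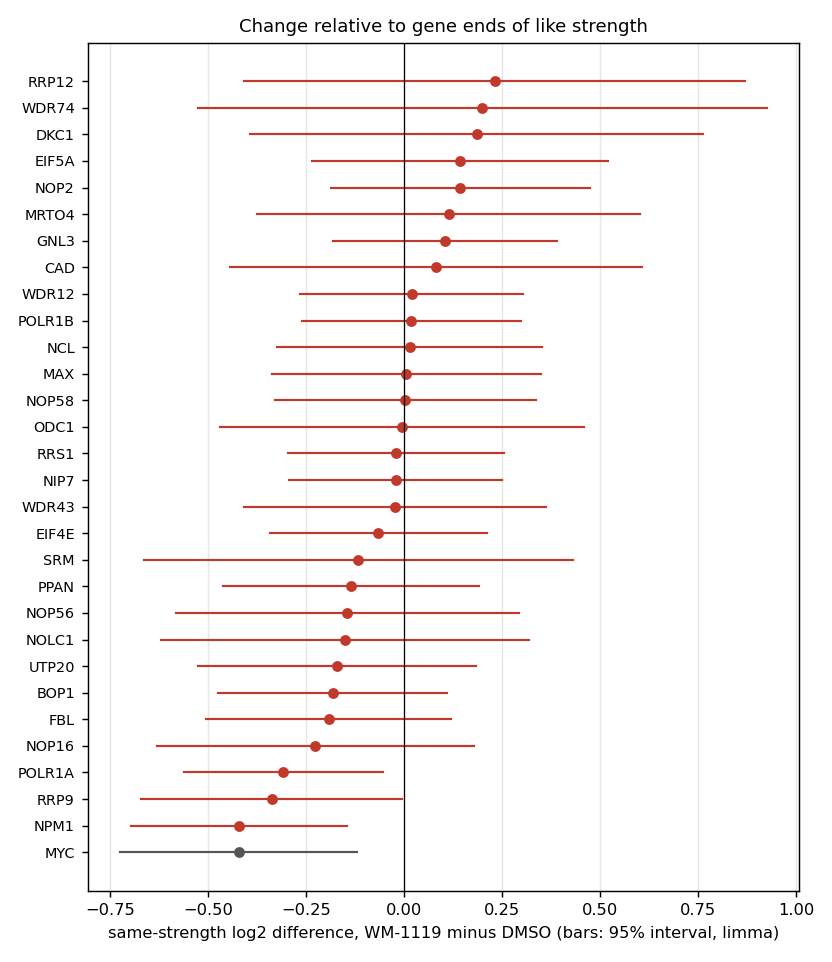
Same-strength log2 difference, WM-1119 minus DMSO, for each listed gene (red) and MYC (grey), ordered by size, with points for the limma estimate over 3 libraries a group and bars for its 95% interval. NPM1 is the lowest listed gene at -0.42 and RRP12 the highest at 0.23, and the bars of NPM1, RRP9, POLR1A and MYC leave out 0 although none passed the adjusted test.

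The listed genes stood low in the replicate 1 library of both groups. The median same-strength value over the 29 genes was -0.19, 0.06 and 0.04 in WM-1119 replicates 1, 2 and 3, against -0.18, 0.18 and 0.12 in DMSO replicates 1, 2 and 3. In the replicate 1 libraries 24 genes in WM-1119 and 23 in DMSO were below regions of their own strength. In the other libraries it was 5 and 8 genes in WM-1119, against 7 and 5 in DMSO. WDR74, DKC1 and MRTO4 were furthest below in DMSO replicate 1, at -0.86, -0.64 and -0.50, while RRP12 had its own order, with 0.49, 0.26 and -0.52 in WM-1119 libraries, against -0.04, 0.04 and -0.47 in DMSO libraries. The other ribosome biogenesis genes moved the same way by less, with medians of -0.07, 0.01 and 0.01 in WM-1119 libraries, against -0.06, 0.09 and 0.08 in DMSO libraries. What sets the replicate 1 libraries apart was not tested.

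**Figure D5:**
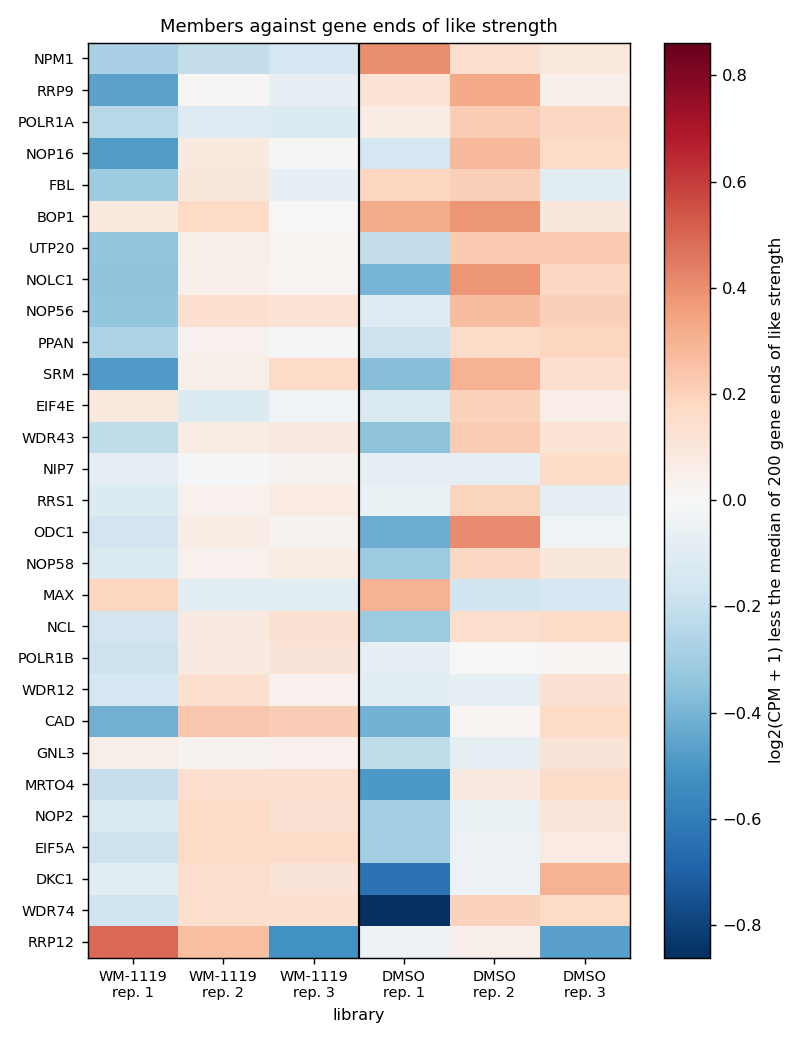
Heat map of the same-strength log2 value (red above 0, blue below) of each listed gene in each library, WM-1119 libraries left of DMSO libraries, with genes ordered by the difference between the groups. The replicate 1 columns are mostly blue in both groups, and the medians are -0.19 and -0.18 in the replicate 1 libraries of WM-1119 and DMSO, and between 0.04 and 0.18 in the other 4.

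Genes with and without an E-box in their window had like medians, and the difference was not tested. The median log2 change was 0.19 for the 10 genes with CACGTG and a region and 0.19 for the 14 whose windows lack it. On the same-strength scale the medians were -0.04 and 0.01.

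Over the wider pathway, 121 other ribosome biogenesis genes were listed and 116 had a region, of which 115 were tested on 114 different regions. Of these regions 83 had a higher log2 mean and 31 a lower one. The median log2 change was 0.09, and 0 were called in either direction. At an unadjusted p under 0.05 there were 7 of 114 higher and 0 lower, against 9.49% and 1.8% of gene-end regions. The smallest p-values in the higher direction belonged to DDX21, an RNA helicase of the nucleolus, TMA16, a large subunit factor, and UTP18, a small subunit factor. DDX21 averaged 104 ± 8.10 CPM in WM-1119 libraries, against 78.7 ± 16.6 CPM in DMSO libraries, with a log2 change of 0.42 ± 0.17 and an adjusted limma p of 0.349. TMA16 and UTP18 had log2 changes of 0.36 ± 0.17 and 0.34 ± 0.16. In the lower direction they were RRP1, WDR18 and GNL2, all large subunit factors, with log2 changes of -0.26 ± 0.17, -0.22 ± 0.19 and -0.24 ± 0.21. RRP1 averaged 78.2 ± 9.76 CPM in WM-1119 libraries, against 93.8 ± 8.49 CPM in DMSO libraries, and its same-strength difference was -0.44 ± 0.13 (limma, adjusted p = 0.661). On the same-strength scale the wider list had 41 regions higher and 73 lower, with a median of -0.07. All gene-end regions had 5361 higher and 4947 lower, with a median of 0.01. On that scale the groups did not overlap at 16 of the 114 regions in the lower direction and 1 in the higher. The shares over gene-end regions were 7.29% and 7.09%.

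MYC itself, whose product drives many of these genes, had a region of 265, 337 and 375 CPM in WM-1119 libraries, against 281, 360 and 482 CPM in DMSO libraries, at chr8:127734179-127740124. The groups overlapped, with a log2 change of -0.18 ± 0.15 (limma, adjusted p = 0.499). Its same-strength difference was -0.42 ± 0.14, with an unadjusted limma p of 0.0110 and an adjusted one of 0.676, and its groups did not overlap on that scale. Gene-end regions of chromosome 8, which also carries BOP1 and RRS1, had a median same-strength difference of -0.11, with 107 higher and 261 lower of 368. Their medians by library were 0.02, -0.04 and -0.08 in WM-1119 libraries, against 0.25, 0.13 and -0.10 in DMSO libraries, and the part of this in the value of MYC was not tested. Of the 14 genes of the MYC network 13 had a region, 10 with a higher and 3 with a lower log2 mean. Of these 0 were called. TRRAP, a scaffold of acetyltransferase complexes that binds MYC, had the largest log2 change of these, 0.41 ± 0.16 (limma, adjusted p = 0.340).

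PES1 was left out by the rule and not by a lack of signal. Its promoter window lay in a region of its own at chr22:30590638-30592477, 14013 bp from the nearest annotated end used, which held 48.2, 64.6 and 61.8 CPM in WM-1119 libraries, against 55.6, 57.8 and 71.9 CPM in DMSO libraries, with overlapping groups. No other distance limit was tried. The chosen region of WDR74, at 662 bp, was the furthest from an end. WDR74 had 4 regions within the limit, and another of them, at 254 bp, averaged 2.48 CPM. The nearest regions outside the limit, at WDR12, SRM and NOLC1, had means of 2.07, 0.735 and 2.44 CPM.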

How the data were processed

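H3K9ac chromatin immunoprecipitation sequencing was analysed in 3 WM-1119 and 3 DMSO libraries of MOLM-13 cells, grouped by their titles. Tools listed in the submitters' processing notes are Bowtie2, SAMtools, MACS2 and bedtools, with no versions, and the build is hg38. No step for merging regions is given in the sources used here. The authors head the deposited table as TPM, and its values are CPM over its 47648 regions, since every column sums to 1000000 and low values are whole multiples of 1 read (within 0.02 reads). Region starts were read as counted from 0 and given here from 1.

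Gene ends came from the RefSeq table of GRCh38.p14. The members and gene lists were chosen with earlier results of these data known. WM-1119 was compared with DMSO in limma 3.58.1 (R 4.3.3, trend and robust options) on log2(CPM + 1), over regions averaging 1 CPM or more, with no covariate and Benjamini-Hochberg adjustment over all of them. The pseudocount of 1 understates changes of weak regions. Same-strength values were fitted likewise over gene-end regions. Both fits were tested on simulated data. Named genes are the 5 highest and 5 lowest changes, MYC, MAX, NCL and NPM1, and the 3 smallest p-values per direction among other ribosome biogenesis genes, and further listed genes were added by role. Alternatives were other pseudocounts, filters and scalings, a replicate block, left-out libraries, sums over all regions at a gene's ends and edgeR 4.0.16 on whole reads recovered from 5 libraries (all but WM-1119 replicate 2). Figures and sequence searches used Python 3.11.15. The design expected TPM, and CPM needed the same test.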

Additional observations from a re-analysis of the deposited data

How the results depend on the processing

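The 0 calls at the listed genes held under every alternative but 1, since leaving out 1 library gave 0 to 6 (6 without DMSO replicate 3), and for the wider list 0 to 21. Over all regions the 27 calls became 2 among regions averaging 10 CPM or more, 1 with quantile normalization, 2 (both higher) with median centring, 0 without DMSO replicates 1 and 2, 0 with edgeR (350 higher, 1773 lower by the unadjusted p under 0.05) and 0 to 19600 without 1 library. The median change of 0.19 was 0.96 with median centring, 0.49 with edgeR and -0.15 without DMSO replicates 1 and 2, and the cause was not tested. Median centring adds the same amount to every region's change and moves the median of all regions to 0.30, against -0.47. It turned NPM1 to 0.53, RRP9 to 0.62, UTP20 to 0.64, POLR1A to 0.67, FBL to 0.76, MYC to 0.59, RRP1 to 0.51, WDR18 to 0.55 and GNL2 to 0.53. In edgeR these were 0.16, 0.17, 0.14, 0.23, 0.32, 0.12, 0.12, 0.072 and 0.10 in that order of genes, and quantile normalization put UTP20 at 0.0022. Without DMSO replicates 1 and 2 the change was -0.082 at GNL3, -0.17 at MRTO4, -0.050 at EIF5A, -0.15 at WDR74 and -0.19 at NCL. Leaving out 1 library gave -0.23 to 0.027 at POLR1A, -0.11 to 0.11 at FBL, -0.024 to 0.69 at WDR74, -0.023 to 0.49 at NCL and -0.37 to 0.017 at MYC. The same-strength median stayed between -0.15 and 0.04. For single genes, same-strength values without DMSO replicates 1 and 2 were 0.016 at FBL, -0.066 at GNL3, -0.14 at MRTO4, -0.014 at EIF5A, -0.16 at WDR74 and -0.15 at NCL, and MAX was at -0.0079 with quantile normalization. Without 1 library they ran from -0.081 to 0.26 at MRTO4, -0.16 to 0.38 at WDR74, -0.070 to 0.19 at MAX and -0.14 to 0.11 at NCL. NPM1 stayed between -0.50 and -0.32 on that scale. With the replicate number as a block 496 regions and 0 listed genes were called. Deviations of same-numbered libraries correlated at 0.22, 0.05 and 0.33, and 5 of 6 libraries were closest to their own number. On the same-strength scale the values were 0.35, 0.14 and 0.37, with 6 of 6, a hint from the data and not the design. The lowest depth was that of DMSO replicate 1, with 719329 reads.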
